A study of Mus musculus with 14 samples.

Results

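LSD1 regions of livers with induced YAP were set against the H3K4me2 regions of the same livers. LSD1 is the demethylase encoded by Kdm1a, and H3K4me2, the dimethylated form of lysine 4 of histone H3, is one of its substrates. Every merged region of the YAP LSD1 list was taken, 2949 of the 122523 regions that the 6 lists of the series hold after merging, and a region counted as on H3K4me2 if it had at least 1 bp in common with one of the 51676 regions of the YAP H3K4me2 list. The series is chromatin immunoprecipitation sequencing of mouse liver in 14 libraries, 4 of which lie behind the lists described here (2 for LSD1 and 2 for H3K4me2).

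The YAP livers came from C57BL/6 mice carrying an inducible YAP transgene, and the WT livers, used here for comparison, from wild-type C57BL/6 mice. The labels give doxycycline, 50 mg/L in the drinking water for 10 days, as the inducer of YAP and attach it to all samples, so whether WT mice drank it is not stated. The labels do not name the promoter of the transgene, and animal age and sex are not stated there. A single deposited list stands for the 2 libraries of each antibody and genotype, so no spread between replicates can be computed and no p-value is given. Intervals on shares are Wilson 95% intervals, which cover counting error only and treat regions as independent. Read depth behind the lists is unknown. The liver was taken whole, so fewer cells of a type and less of a mark per cell cannot be told apart.

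LSD1 removes methyl groups from mono- and dimethylated lysine 4 of histone H3, mostly as the catalytic subunit of complexes that also hold a CoREST scaffold and the histone deacetylases HDAC1 or HDAC2. H3K4me2 marks promoters and enhancers that are active or poised, and at active promoters it commonly lies on the nucleosomes beside a nucleosome-poor start site. YAP is the transcriptional co-activator restrained by the Hippo kinase pathway, and in liver it drives growth. The series title places LSD1 downstream of YAP by way of polyamines and the hypusination of eIF5A, and the overlap described here bears on where LSD1 and its substrate meet in such livers.

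Marker genes were examined against the labelled tissue, with few genes a list. H3K4me2 lay at an end of all 4 hepatocyte markers examined (Alb, Apoa1, Ttr and Serpina1a). It lay at an end of 17 of the 46 macrophage, endothelial, stellate and lymphocyte markers, but of 18 of the 24 biliary and progenitor markers. Over all 21887 protein-coding genes the mark was at an end of 12728 (58.2%). Markers of cells other than hepatocytes thus did not lack the mark as a whole. Here the end of a protein-coding gene means the 1 kb to the left and right of its first or last annotated base, since strand was not at hand for every gene.

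The sequences that follow show how the boundary of H3K4me2 falls within promoters that LSD1 meets. They belong to the highest-ranked LSD1 regions, by the authors' score and then signal, that meet a promoter window, where for edges and bridges at least 30 bases of the window had to lie inside H3K4me2 and at least 30 outside, with 3 examples of an edge, 2 of a bridge between H3K4me2 regions and 1 of a gap. Each is the 300-base RefSeq promoter of GRCm38.p6, which has mm10 coordinates, written 5′ to 3′ in the direction of transcription with 250 bases before the start site. Capitals mark bases inside a listed H3K4me2 region of YAP livers and small letters the bases outside.
Cep57: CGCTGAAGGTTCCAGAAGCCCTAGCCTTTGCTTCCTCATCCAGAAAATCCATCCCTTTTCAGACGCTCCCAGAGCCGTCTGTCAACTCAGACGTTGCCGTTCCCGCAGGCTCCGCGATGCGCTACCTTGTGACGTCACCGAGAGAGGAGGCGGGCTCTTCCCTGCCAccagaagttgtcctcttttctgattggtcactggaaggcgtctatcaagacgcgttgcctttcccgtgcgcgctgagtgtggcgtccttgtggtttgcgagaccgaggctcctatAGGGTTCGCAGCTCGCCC
Zfp128: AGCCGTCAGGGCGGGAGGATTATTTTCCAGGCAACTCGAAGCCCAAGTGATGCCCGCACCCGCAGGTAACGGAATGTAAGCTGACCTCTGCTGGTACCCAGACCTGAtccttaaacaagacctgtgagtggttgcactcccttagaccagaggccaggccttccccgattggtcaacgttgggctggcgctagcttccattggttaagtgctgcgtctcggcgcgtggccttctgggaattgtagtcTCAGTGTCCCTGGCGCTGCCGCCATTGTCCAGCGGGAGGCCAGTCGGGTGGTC
Abcc10: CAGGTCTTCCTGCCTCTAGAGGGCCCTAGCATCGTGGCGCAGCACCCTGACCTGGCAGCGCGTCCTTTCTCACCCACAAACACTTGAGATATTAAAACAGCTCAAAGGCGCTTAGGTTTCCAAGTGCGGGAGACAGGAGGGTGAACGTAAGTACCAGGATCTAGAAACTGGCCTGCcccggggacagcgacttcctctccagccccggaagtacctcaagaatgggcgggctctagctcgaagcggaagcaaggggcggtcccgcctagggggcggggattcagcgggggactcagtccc
Zbtb6: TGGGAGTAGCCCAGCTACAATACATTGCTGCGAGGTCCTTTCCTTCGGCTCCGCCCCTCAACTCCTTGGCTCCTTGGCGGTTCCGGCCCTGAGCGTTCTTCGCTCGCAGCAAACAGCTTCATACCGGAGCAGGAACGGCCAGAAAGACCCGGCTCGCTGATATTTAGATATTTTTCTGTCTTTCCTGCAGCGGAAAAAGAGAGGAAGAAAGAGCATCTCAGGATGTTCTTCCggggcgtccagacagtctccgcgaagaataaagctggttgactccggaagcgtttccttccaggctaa
Ablim1: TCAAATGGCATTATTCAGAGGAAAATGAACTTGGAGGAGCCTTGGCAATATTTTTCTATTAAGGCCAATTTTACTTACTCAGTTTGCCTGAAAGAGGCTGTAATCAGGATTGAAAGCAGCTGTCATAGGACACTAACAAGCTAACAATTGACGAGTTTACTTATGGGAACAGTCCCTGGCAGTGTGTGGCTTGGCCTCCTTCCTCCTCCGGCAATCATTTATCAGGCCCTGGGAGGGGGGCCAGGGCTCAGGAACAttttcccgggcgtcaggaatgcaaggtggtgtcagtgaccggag
Aurka: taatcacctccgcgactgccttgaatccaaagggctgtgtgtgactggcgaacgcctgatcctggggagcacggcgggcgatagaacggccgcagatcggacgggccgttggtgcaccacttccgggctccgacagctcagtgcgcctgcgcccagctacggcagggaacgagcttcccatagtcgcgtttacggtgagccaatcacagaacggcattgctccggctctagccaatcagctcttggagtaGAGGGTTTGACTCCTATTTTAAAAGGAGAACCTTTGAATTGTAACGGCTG

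The window of Cep57, which encodes a centrosomal protein, is chr9:13827004-13827303 on the minus strand, and LSD1 covered its bases 1 to 237. H3K4me2 covered 185 bases there, in stretches at both ends of the window, and the unlisted stretch between them spanned the start site. At Zfp128, a zinc finger gene (chr7:12880928-12881227, plus strand), LSD1 covered bases 1 to 247 and H3K4me2 covered 160 bases on both sides of an unlisted stretch. At Abcc10, an ABC transporter gene (chr17:46327974-46328273, minus strand), H3K4me2 ended at base 176 and LSD1 at base 198. In all 3 edge examples the unlisted bases lay between the upstream H3K4me2 and the start site or reached past it.

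At Zbtb6, another zinc finger gene (chr2:37430870-37431169, minus strand), LSD1 covered all 300 bases and joined 2 H3K4me2 regions, the first of which ended at base 232. At Ablim1, which encodes an actin-binding LIM protein (chr19:57197582-57197881, minus strand), H3K4me2 ended at base 256 and LSD1 began at base 228, so here the space lay downstream of the start site. At Aurka, which encodes a mitotic kinase (chr2:172370521-172370820, minus strand), H3K4me2 began at base 251 and LSD1 ended at base 223, which left the LSD1 region on unlisted bases.

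LSD1 of YAP livers lay on H3K4me2 at 1914 of 2949 regions, or 64.9% (63.2% to 66.6%), and off it at 1035 regions, or 35.1% (33.4% to 36.8%). H3K4me2 itself covered 49 Mb, which is 1.82% of the 2691 Mb between the outermost genes or regions of the chromosomes. Counted by midpoints, 1459 LSD1 regions (49.5%) were centred inside H3K4me2, at 29.8 per Mb inside and 0.564 per Mb outside, a ratio of 52.8. The ratio takes no account of bases to which reads cannot be aligned.

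With H3K4me2 regions taken as listed, most LSD1 on the mark crossed a boundary of a listed region. This order depended on how finely the mark was divided. With H3K4me2 regions within 1 kb joined, 50.8% of LSD1 regions were inside and 14.9% at an edge. Regions that crossed the edge of a single H3K4me2 region numbered 1002, or 34.0% (32.3% to 35.7%) of all LSD1 regions. A further 291, or 9.87% (8.84% to 11.0%), touched at least 2 H3K4me2 regions and so bridged the space between them. Only 621, or 21.1% (19.6% to 22.6%), lay wholly inside 1 H3K4me2 region.

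The regions off H3K4me2 split into 40 in a gap, 188 beside the mark and 807 distant from it. A gap lies between neighbouring H3K4me2 regions at most 2 kb apart, and gaps held 1.36% (0.998% to 1.84%) of LSD1 regions. Beside means within 1 kb of H3K4me2 but in no such gap, which applied to 6.38% (5.55% to 7.31%). Distant regions made up 27.4% (25.8% to 29.0%).

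In WT livers too the edge class was the largest, and a larger share of LSD1 was on the mark. There LSD1 was on H3K4me2 at 1085 of 1500 regions, so that YAP livers had 64.9% and WT livers 72.3%, a difference of -7.43 percentage points (-10.2 to -4.55, Newcombe interval). With the YAP list limited to its 1500 highest-scoring regions the share was 63.5% in YAP livers against 72.3% in WT livers, a difference of -8.87 points (-12.2 to -5.53). The distant class was larger in YAP livers, with 27.4% in YAP and 21.1% in WT, a difference of 6.23 points (3.57 to 8.81), and the inside class smaller, with 21.1% in YAP and 25.1% in WT, a difference of -4.01 points (-6.68 to -1.40). For the edge, bridging, gap and beside classes the interval of the difference included 0. Without replicates these differences compare 2 pairs of lists, and whether they exceed the variation between animals cannot be told.

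**Figure D1:**
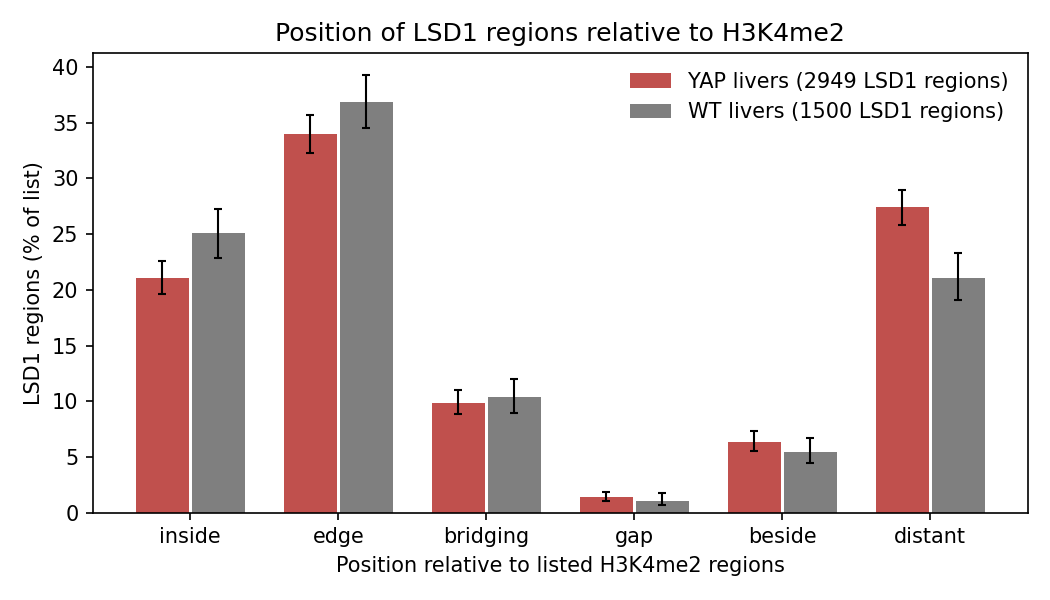
Share of LSD1 regions (% of the list) in each position class relative to listed H3K4me2, for YAP livers (left bar, 2949 regions) and WT livers (right bar, 1500 regions), with Wilson 95% intervals. The edge class is the largest in both genotypes, and the distant class is 27.4% in YAP and 21.1% in WT livers.

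The edge class was mostly a partial overlap. Of its 1002 regions, 883 (88.1%) crossed 1 boundary, with a median overlap of 272 bp, and 119 (11.9%) were wider than the H3K4me2 region they met and held it whole. Every listed LSD1 region of YAP livers is 400 bp wide, and 393 of the merged regions combine at least 2 of them. Of the H3K4me2 regions, 18509 (35.8%) were under 400 bp and could hold no LSD1 region whole. The class therefore varied with the width of the H3K4me2 region that held most of the LSD1 region. In H3K4me2 regions of 1000 to 2000 bp, 205 of 544 LSD1 regions (37.7%) were inside and 249 (45.8%) at an edge. In those of 2000 bp or more, 339 of 488 (69.5%) were inside and 107 (21.9%) at an edge.

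A density that allows for width was therefore computed, the number of LSD1 midpoints per Mb at each distance from the nearest H3K4me2 boundary, with exact Poisson 95% intervals. Inside H3K4me2 it was 46.0 per Mb (41.9 to 50.3) within 100 bp of a boundary and 41.8 (37.4 to 46.5) from 100 to 200 bp. Deeper it was 18.5 (15.8 to 21.5) at 400 to 700 bp and 20.4 (16.1 to 25.3) at 1000 to 1500 bp. The 200 bp next to the boundary on its inner side thus had the highest densities of all distances examined.

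The gradient was also present when only long regions were counted. In the 6377 H3K4me2 regions of 2000 bp or more, the density was 39.2 per Mb (29.1 to 51.7) in the outermost 100 bp. It was 31.4 (22.4 to 42.7) from 100 to 200 bp and lowest, 18 (14 to 22.8), at 400 to 700 bp. Further in it was 22.2 (17.7 to 27.5) at 700 to 1000 bp, 20.4 (16.1 to 25.3) at 1000 to 1500 bp and 21.4 (15.6 to 28.6) beyond. The interval at 100 to 200 bp overlapped all of these deeper ones. Outside H3K4me2 it was 29.6 per Mb (26.3 to 33.3) within 100 bp, 3.78 (2.86 to 4.91) at 400 to 700 bp and 0.222 (0.202 to 0.243) beyond 10 kb. The first 100 bp outside a boundary were thus denser in LSD1 than the stretch 400 to 700 bp inside it, and the density fell off within 400 bp of the mark.

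**Figure D2:**
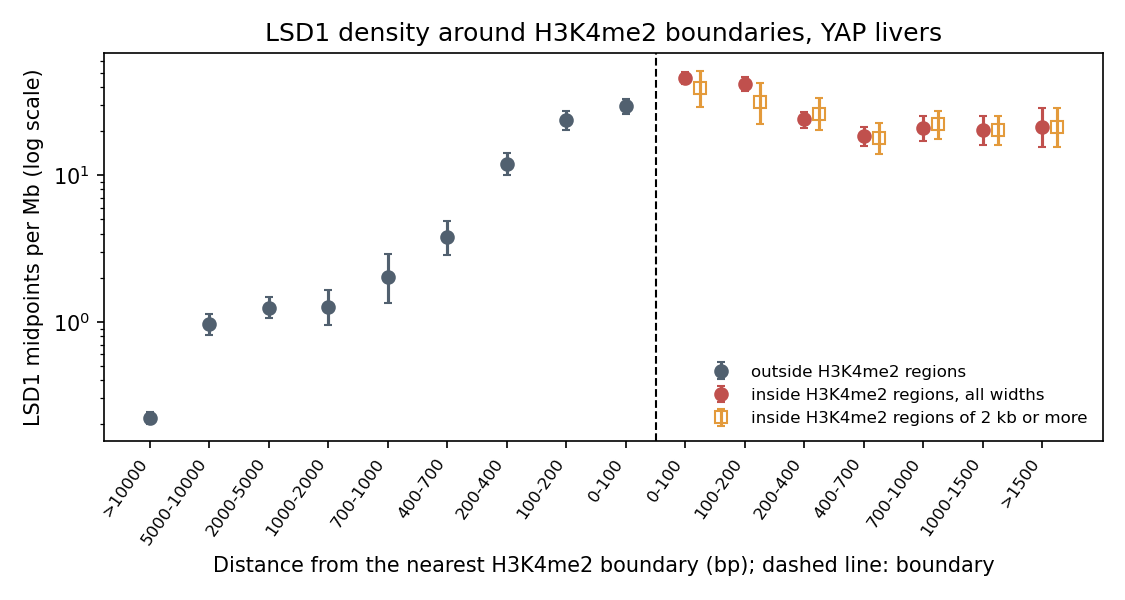
LSD1 midpoints per Mb (log scale) by distance in bp from the nearest H3K4me2 boundary in YAP livers, outside the mark to the left of the dashed line and inside it to the right; bars are exact Poisson 95% intervals. The density is 46.0 per Mb in the outermost 100 bp of H3K4me2, and open squares, for regions of 2 kb or more, start at 39.2 per Mb.

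The spaces that LSD1 bridged were narrow, as the class requires, since 1 LSD1 region has to touch the H3K4me2 on both sides. The widest space between the H3K4me2 regions joined by a bridging LSD1 region had a median of 145 bp (quartiles 106 and 210 bp). The spaces around the 40 gap regions had a median of 922 bp, and each had to hold a whole LSD1 region. The difference between these medians therefore follows in part from how the classes are defined. After joining of H3K4me2 regions separated by up to 1 kb, the inside share became 50.8% and the edge share 14.9%, so the split between inside and edge rests on how finely the mark was divided into regions.

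Among LSD1 regions at gene ends, those inside H3K4me2 were led by genes of varied function. The highest-ranked of them was at the upper-coordinate end of Ampd2, an AMP deaminase gene (LSD1 at chr3:108085355-108085754, signal 80.5), within an H3K4me2 region of 4689 bp. It was followed by a region shared by Rbak and Spdye4b (signal 73.4, H3K4me2 width 1387 bp), Rbak being a zinc finger gene whose product binds the retinoblastoma protein. Next came a region shared by Nsl1, which encodes a kinetochore subunit, and Tatdn3 (signal 71.0, H3K4me2 width 2782 bp), and one at Cdk20, a cyclin-dependent kinase gene (signal 71.0, H3K4me2 width 1306 bp). The neighbouring genes Btf3l4 and Txndc12 shared another (signal 68.9, 2601 bp), and Irak1bp1 had one as well (66.1, 1909 bp). All of the inside genes named here had a score of 1000. The signal is the authors' value per region, its definition is not stated, and it serves here only to rank and describe regions within a list.

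Among edge regions at gene ends the first lay where the ends of Cep57 and Fam76b meet (LSD1 at chr9:13827067-13827466, signal 90.9). It held the whole of a 242 bp H3K4me2 region, and another H3K4me2 region began 45 bp away. Zfp128 followed (signal 77.6, 65.0% of the LSD1 region covered), and then the neighbours Erp44, an endoplasmic reticulum chaperone, and Invs, a ciliary protein (signal 76.0, 89.2% covered). The leading bridging region at a gene end was that of Snx11, a sorting nexin gene (LSD1 at chr11:96777508-96777907, signal 94.0), with H3K4me2 regions of 2224 and 569 bp on its sides and 26.5% of it covered. Zbtb6 and Zbtb26 shared the next (signal 78.6), followed by Pik3c2a, a phosphoinositide kinase gene (73.1), and Aup1 (66.1).

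The leading gap region at a gene end was that of Fbxw7, which encodes a substrate receptor of a ubiquitin ligase (LSD1 at chr3:84814272-84814870, signal 94.8), 65 bp from H3K4me2 on one side and 36 bp on the other. Aurka and Cstf1, which encodes a factor of mRNA 3' end cleavage, shared the next (58.2), followed by Ercc1, a DNA repair gene (45.7), and Bbip1 (45.6). Distant LSD1 at gene ends was led by Lep, the leptin gene (signal 63.1, nearest H3K4me2 25371 bp away), Vstm2l (58.6), Sdc1, the syndecan-1 gene (49.1), Fam25c (43.8) and Slc13a3, a dicarboxylate transporter gene (38.8). At none of these 5 distant genes was H3K4me2 of WT livers listed under the LSD1 region. LSD1 was at the upper-coordinate end of Lep and Sdc1, 13811 and 22498 bp from the nearest start site of the RefSeq promoter table. At the other distant genes named, that distance was 3633 bp or more. The promoter table does not cover every gene.

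**Figure D3:**
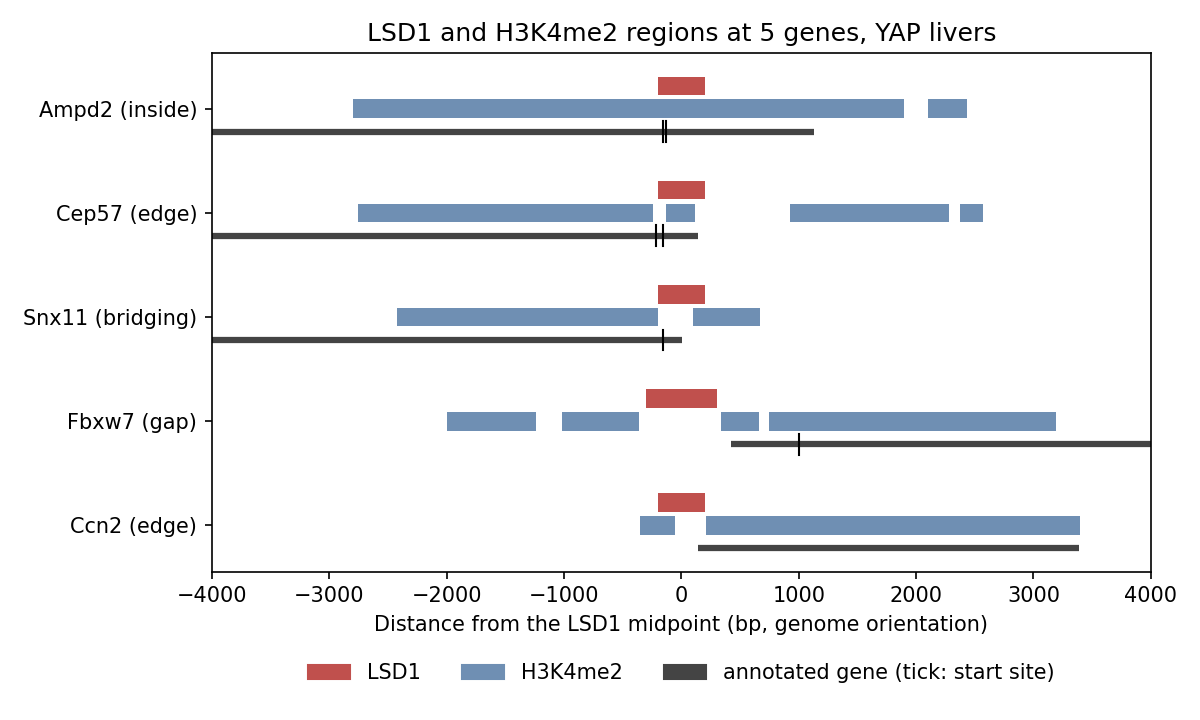
LSD1 regions (upper bars), H3K4me2 regions (middle bars) and the annotated gene (lower line, ticks at start sites of the RefSeq promoter table) by distance in bp from the LSD1 midpoint in YAP livers, for the top-ranked gene of the inside, edge, bridging and gap classes and for Ccn2. LSD1 sits within a 4689 bp region at Ampd2 and over a break in H3K4me2 at Snx11 and Fbxw7.

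LSD1 on and off the mark differed in where it stood relative to genes. Of the LSD1 regions on H3K4me2, 51.5% lay at gene ends, against 8.21% of those off it, a difference of 43.3 points (40.4 to 46.0). Regions between genes made up 19.7% on the mark and 50.0% off it, a difference of -30.3 points (-33.8 to -26.7), and regions in gene bodies 28.7% and 41.7%. Read the other way, 986 of 1071 LSD1 regions at gene ends were on H3K4me2 (92.1%, 90.3% to 93.5%), compared with 550 of 982 in gene bodies (56.0%) and 378 of 896 between genes (42.2%). The mark itself had 20763 regions at gene ends and 30913 away from them, and those at gene ends covered more bases. Per Mb of H3K4me2, LSD1 midpoints were alike in both places, 29.6 (27.6 to 31.7) at gene ends and 30.1 (27.7 to 32.5) away. Per base of the mark, LSD1 thus showed no preference for gene ends. How much of the difference between on and off regions follows from where the mark lies was not tested. Bridging regions were at gene ends in 62.2% (56.5% to 67.6%), inside regions in 55.1% (51.1% to 58.9%) and edge regions in 46.2% (43.1% to 49.3%).

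Against these differences in place, the authors' signal hardly separated the groups. Its median was 35.3 (34.9 to 35.6) on H3K4me2 and 35.6 (35.1 to 36.1) off it, and with regions split at the quartiles of the signal the share on H3K4me2 was 67.3%, 64.2%, 66.5% and 61.6% in order of increasing signal. Within the on regions the median was 34.7 (33.9 to 35.4) inside, 35.5 (34.9 to 35.8) at an edge and 36.2 (35.2 to 37.1) for bridging. A score of 1000 was held by 20.9% (17.9% to 24.3%) of inside, 24.1% (21.5% to 26.8%) of edge and 33.7% (28.5% to 39.3%) of bridging regions. A merged LSD1 region keeps the score and signal of its highest-scoring entry, and the part of merging in these shares was not tested.

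LSD1 off the mark lay at widely varying distances from it. The median distance from an off region to the nearest H3K4me2 was 8200 bp (quartiles 1628 and 26748 bp). Within 10 kb of H3K4me2 lay 567 of 1035 (54.8%, 51.7% to 57.8%), and within 50 kb 876 (84.6%, 82.3% to 86.7%).

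Most LSD1 regions stood where H3K4me2 was listed in WT livers as well. Of the 2949, 1698 (57.6%) had H3K4me2 in both genotypes and 868 (29.4%) in neither. The mark was listed in YAP livers only at 216 (7.32%, 6.44% to 8.32%) and in WT livers only at 167 (5.66%, 4.88% to 6.56%). At gene ends these last 2 groups were small, with 19 and 28 regions. WT H3K4me2 underlay 97.1% of the inside, 93.1% of the bridging, 82.2% of the edge, 45.0% of the gap, 33.5% of the beside and 10.7% of the distant regions. LSD1 regions that were also listed in WT livers were on YAP H3K4me2 in 69.0% (64.9% to 72.9%), and those listed in YAP livers only in 64.0% (62.1% to 65.9%). Listed H3K4me1 of YAP livers overlapped few LSD1 regions on either side, 16 of the 1914 on H3K4me2 and 12 of the 1035 off it. That H3K4me1 list is short, with 6274 regions beside the 51676 of H3K4me2. Whether LSD1 met H3K4me1 more or less often than the size of the list would give was not tested.

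At start sites the classes differed in spread. The RefSeq promoter table gave start sites and strand for 17492 of the 21887 protein-coding genes. Within 1 kb of such a site lay 878 of the 1854 LSD1 regions on H3K4me2 that could be placed (47.4%, 45.1% to 49.6%), against 45 of 998 off it (4.51%, 3.39% to 5.98%). The part of the mark's own position in this contrast was not tested. Bridging LSD1 kept closest to the site, with 128 of 152 regions within 200 bp and a median of -38 bp (quartiles -124 and 65.8, negative upstream). Inside regions had 148 of 299 within 200 bp and a median of 20 bp (quartiles -190 and 208). Edge regions had 229 of 427 within 200 bp and lay more often upstream than downstream, 264 to 162, with a median of -110 bp (quartiles -276 and 99.5).

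**Figure D4:**
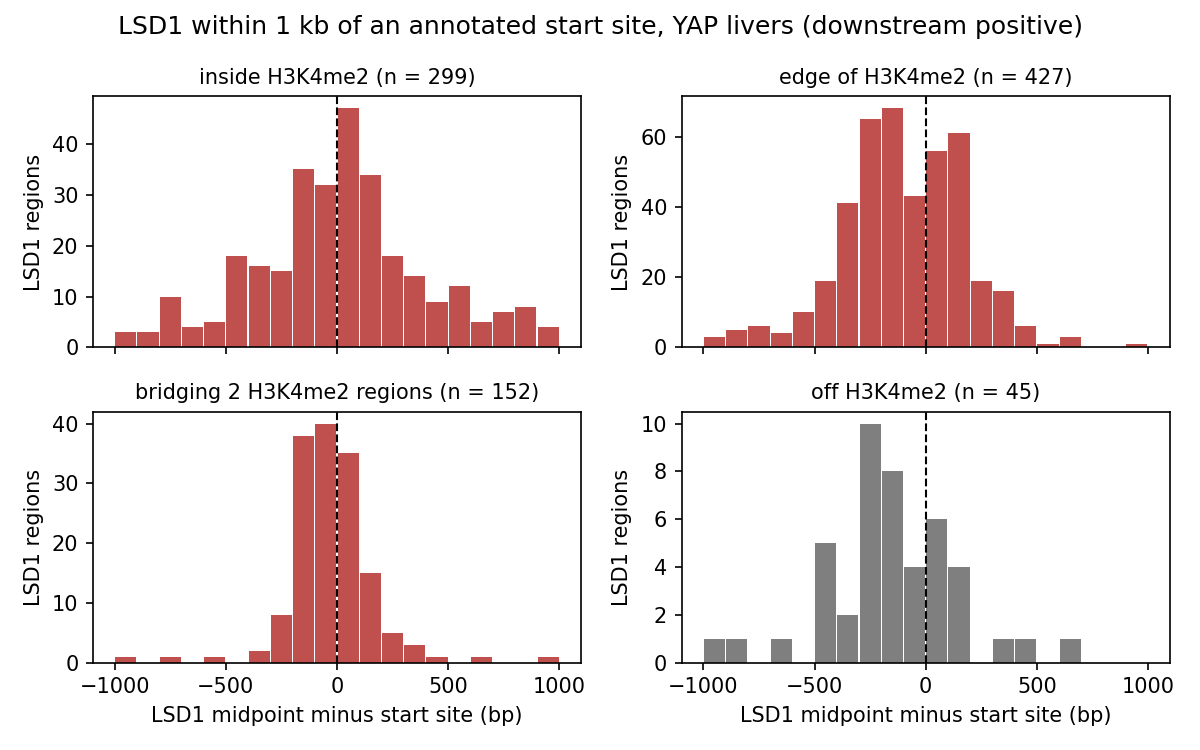
Number of LSD1 regions by distance in bp from the nearest annotated start site (downstream positive) in YAP livers, in 100 bp steps, for LSD1 inside, at the edge of, bridging and off H3K4me2. Bridging LSD1 is concentrated around the start site, and edge LSD1 has maxima on both sides of it with fewer regions just upstream.

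The side of the H3K4me2 region was then read for edge LSD1 that crossed 1 boundary near start sites of a single strand. H3K4me2 lay upstream of LSD1 at 215 of 347 such regions within 1 kb of a start site (62.0%, 56.7% to 66.9%). Of all H3K4me2 boundaries within the same distance of start sites, 41.4% (40.8% to 42.1%) had the region upstream. Within 200 bp of the start site the shares were 50.0% (42.6% to 57.4%) for LSD1 and 46.4% (45.3% to 47.5%) for all boundaries. The distances compared are those of the LSD1 midpoint and of the boundary itself, which need not be equal.

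Promoter windows met by LSD1 on H3K4me2 resembled other H3K4me2 promoters in base composition. The median GC content was 61.2% in the 872 windows with LSD1 on H3K4me2, 61.3% in the 9870 with H3K4me2 and no LSD1, and 50.3% in the 10475 with neither. The observed-to-expected ratio of CpG had medians of 0.806 (quartiles 0.661 and 0.925), 0.764 (0.581 and 0.907) and 0.250 (0.122 and 0.509) in the same order. Windows of 1 gene can overlap and are not independent.

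Of 13 motifs searched as exact letters on both strands, 3 had Wilson intervals that did not meet between promoters with LSD1 on H3K4me2 and H3K4me2 promoters without LSD1. The ETS letters CCGGAAG were in 25.3% (22.6% to 28.3%) and 18.1% (17.4% to 18.9%), and in 11.6% of all 21263 windows. The NF-Y letters CCAAT were in 44.3% (41.0% to 47.6%) and 37.3% (36.4% to 38.3%), and in 38.2% of all. The YY1 letters AAGATGGC were in 7.57% (5.99% to 9.52%) and 4.04% (3.67% to 4.45%), and in 3.05% of all.

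For the other 10 motifs the intervals overlapped. The TEAD letters GGAATG, TEAD factors being the DNA-binding partners of YAP, were in 11.9% (9.94% to 14.2%) of promoters with LSD1 on H3K4me2 and 11.8% (11.1% to 12.4%) of H3K4me2 promoters without LSD1, and in 13.6% of all windows. The SP and KLF letters GGGCGG were in 65.4% of both sets and 46.2% of all. The letters of the hepatocyte factor HNF4A, CAAAGTCCA, were in 0.917% (0.466% to 1.80%) and 0.385% (0.281% to 0.528%), those of AP-1, TGANTCA, in 2.98% (2.04% to 4.33%) and 4.72% (4.32% to 5.16%), and those of CRE, TGACGTCA, in 4.82% (3.58% to 6.45%) and 3.22% (2.89% to 3.59%). The E-box CACGTG was in 12% and 10.2%, the E2F letters TTCCCGCC in 4.13% and 4.27%, NRF1 in 2.64% and 2.27%, ZFP143 in 3.56% and 2.31%, and HNF1 in 0 of 872 and 1 of 9870 windows. No motif holds another whole, but neighbouring matches can share bases, as those of E2F with SP and KLF. A match is a description of the letters and not a binding site.

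Seen from the mark, LSD1 met 2185 of 51676 H3K4me2 regions (4.23%), and these were longer than the rest. Bound regions had a median width of 1060 bp (order-statistic 95% interval 1008 to 1117; quartiles 501 and 1939) and unbound regions one of 562 bp (555 to 568; quartiles 313 and 1230). Of the bound regions 23.9% were 2000 bp or more, against 11.8% of the unbound, and 19.7% against 36.5% were under 400 bp. The median of the authors' score was 187 in bound and 83.0 in unbound regions. Score and width go together in this list, and among the higher-scoring 50% of H3K4me2 regions the medians were 1312 bp for bound and 1218 bp for unbound regions.

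The share bound rose with width while the density of LSD1 did not. LSD1 met 2.33% (2.07% to 2.62%) of regions under 300 bp, 4.03% (3.70% to 4.40%) of those from 500 to 1000 bp, 7.47% (6.81% to 8.18%) of those from 2000 to 4000 bp and 13.4% (11.2% to 16.0%) of those of 4000 bp or more. In the same classes there were 47.1 (39.4 to 56.0), 37.9 (33.9 to 42.3), 22.3 (19.9 to 24.8) and 26.9 (22 to 32.6) LSD1 midpoints per Mb of H3K4me2. The density was 29.2 (24.4 to 34.7) at 300 to 500 bp and 30.3 (27.6 to 33.3) at 1000 to 2000 bp, so it did not fall steadily with width. A longer region offers more bases to be met. Per base the classes of 2000 bp or more had fewer LSD1 midpoints than the class under 300 bp. The interval at 300 to 500 bp overlapped that at 4000 bp or more.

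Bound regions also had the higher score at a given width, up to 4000 bp. The median score was 158 in bound and 90.0 in unbound regions of 500 to 1000 bp, 224 and 196 in those of 1000 to 2000 bp, and 312 and 328 in those of 4000 bp or more.

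**Figure D5:**
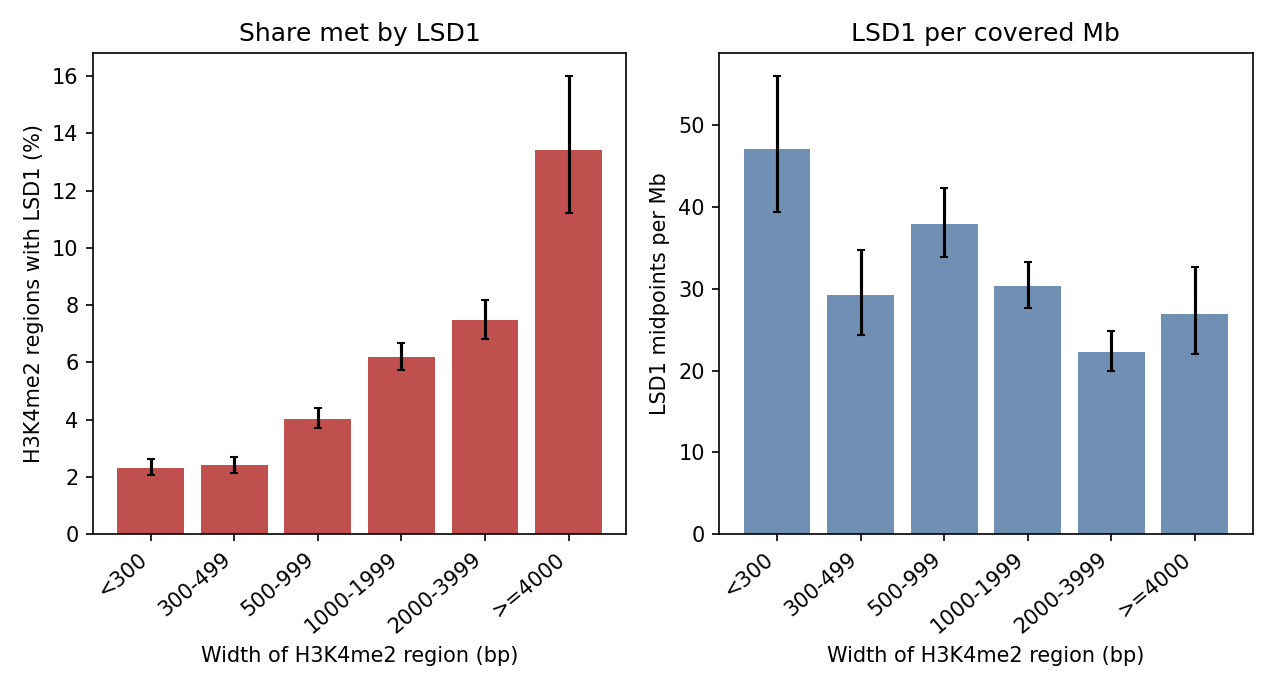
Share of H3K4me2 regions met by LSD1 (left, % with Wilson 95% intervals) and LSD1 midpoints per Mb of H3K4me2 (right, with exact Poisson 95% intervals) by width of the H3K4me2 region in YAP livers. The share goes up to 13.4% in the longest class, where the density is 26.9 per Mb against 47.1 in the shortest.

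The difference in width held at gene ends and away from them. At gene ends LSD1 met 1236 of 20763 H3K4me2 regions (5.95%, 5.64% to 6.28%), with medians of 1414 bp (1337 to 1482) for bound and 1102 bp (1084 to 1121) for unbound regions. Away from gene ends it met 949 of 30913 (3.07%, 2.88% to 3.27%), with medians of 616 bp (573 to 691) for bound and 412 bp (407 to 416) for unbound regions. Per covered Mb the places were alike, with 29.6 midpoints (27.6 to 31.7) at gene ends and 30.1 (27.7 to 32.5) away from them.

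The longest bound region at a gene end was 9870 bp long at Irf2bp2 (chr8:126583480-126593349), whose product is a transcriptional corepressor. Next were Mgat1, a glycosyltransferase of N-glycan synthesis (9176 bp), Dusp6, a phosphatase of ERK kinases (8227 bp, with 2 LSD1 regions inside), Alcam, a cell adhesion molecule (7486 bp), and Foxo3, a transcription factor of growth restraint (7256 bp). Regions as long were also without LSD1, the longest at Rnd3 (10662 bp), Gata6 (10416 bp), Bcl6 (9881 bp), Slc40a1, the iron exporter ferroportin (9445 bp), and Irs2, an insulin receptor substrate (9021 bp). Of the 100 longest H3K4me2 regions, all of at least 6016 bp, LSD1 met 15 (9.31% to 23.3%).

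Both LSD1 and H3K4me2 lay at the same end of 1222 genes, which is 5.58% of the 21887 protein-coding genes and 9.60% of the 12728 with H3K4me2 at an end. Nearly all genes with LSD1 at an end also had the mark there, 1222 of 1252 (97.6%), while 17 had no H3K4me2 at either end and 13 had it at the other end only. Over all protein-coding genes, with or without LSD1, 58.2% had the mark at an end. At 1157 of the 1222 an LSD1 region at a gene end itself overlapped H3K4me2.

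Genes that carried both were counted in 16 gene lists, 345 genes in all. H3K4me2 was at an end of 294 of them and both were at the same end of 31, which is 10.5% of those with the mark, next to 9.60% over all genes with it. The lists and the members below were chosen with earlier results of these data known, and the counts describe the lists without a test.

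Liver metabolism genes carried both at 6 of 28 genes with the mark (21.4%). At Hmgcs1, a cholesterol synthesis enzyme, LSD1 stood at the edge of a 525 bp H3K4me2 region (signal 60.9), and at Scd1, a fatty acid desaturase, inside one of 1182 bp (signal 49.3). At G6pc, the glucose-6-phosphatase of gluconeogenesis, it stood at an edge (36.4, 67.2% covered). At the bile acid synthesis genes it was inside a 3139 bp region at Cyp27a1 (41.7) and bridged regions of 1700 and 282 bp at Cyp7a1 (28.9). Acadm, a fatty acid oxidation enzyme, had it at an edge (34.3, 22.8% covered).

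Growth restraint genes carried both at 6 of 34 (17.6%). Btg2, which is anti-proliferative, had LSD1 at an edge with 22.5% covered (signal 42.9), and Dusp6 had it inside an 8227 bp region (38.5). Klf6, a transcription factor gene, had it at an edge (37.4), Gadd45b, a stress-response gene, likewise (34.3), and Foxo3 had it as a bridge between regions of 7256 and 852 bp (36.9). At Egr1, an early growth response factor, LSD1 lay 153 bp beside the mark (33.0).

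YAP target genes carried both at 3 of 26 with the mark (11.5%). Vgll3, a TEAD cofactor, had LSD1 inside a 4809 bp region (signal 60.4), and Zyx, a focal adhesion protein, at the edge of a 1013 bp region (31.6, 69.5% covered). Ccn2, a secreted matricellular protein and textbook YAP target, had LSD1 at chr10:24595098-24595497 (34.3) over the lower-coordinate boundary of the gene. It overlapped a 299 bp H3K4me2 region by 149 bp and ended 8 bp short of the next one. Of the Hippo pathway genes, 2 of 18 with the mark (11.1%) carried both, Stk4, a Hippo kinase (signal 38), and Sav1, its scaffold (31.5), each with LSD1 at an edge.

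Hepatocyte transcription factors and nuclear receptors carried both at 3 of 28 (10.7%), with LSD1 at the edge at Foxa3 (signal 49.2) and inside at Tbx3 (36.5) and Esrra (30.1). Ribosomal protein and translation factor genes carried both at 4 of 30 (13.3%), as a bridge at Eif2s1, a subunit of initiation factor eIF2 (55.1), at an edge at Rpl13a (38.2) and Rpl3 (16.5), and inside at Rpl4 (31.4). Mitochondrial respiration genes did so at 3 of 24 (12.5%), at an edge at Ndufa4 (45.7) and Sdhb (39.7) and inside at Tfam (31.6). Cell cycle genes did so at 2 of 30 (6.67%), Aurka (58.2) and Mcm4, a replicative helicase subunit (30.5), and at both genes LSD1 lay in a gap with no overlap.

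Genes of polyamine metabolism and of H3K4 methylation gave small counts, to be read beside the 9.60% over all genes with the mark. Among polyamine and hypusination genes 1 of 22 with the mark (4.55%) carried both, Azin1, which protects ornithine decarboxylase from degradation, with LSD1 at the edge of a 959 bp region (signal 43.3). Among other enzymes of H3K4 methylation it was Setd1b, a methyltransferase (20.1, inside), 1 of 13 (7.69%). None of the 14 genes of LSD1 complexes with the mark carried both, and the LSD1 region nearest to Kdm1a itself was 98.6 kb from the gene. No gene did so among the 18 biliary and progenitor markers with the mark, nor among the 17 markers of macrophages, endothelium, stellate cells and lymphocytes with it.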

How the data were processed

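Per the labels' protocols, chromatin was cut with micrococcal nuclease to fragments of 150 to 900 bp and libraries had 15 cycles of PCR; whether nuclease cutting moved region boundaries was not tested. The submitters' processing notes name build mm10 and, without their roles, deepTools 3.3.0, bedtools 2.26.0, Picard 1.126, SAMtools 1.7, BWA and Trimmomatic 0.39. How regions were called, at which threshold and against which input is not given in the sources used here. Both libraries of a group go with 1 list, per the labels, and how they were combined is not stated. The score and the signal are the authors' own values per region and only ranked or described regions within a list. The −log10 q-value deposited with the histone lists served as a filter in an alternative. For LSD1 the score runs from 540 to 1000 with no stated meaning.

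Overlapping or touching LSD1 regions were merged (3353 to 2949 in YAP, 1718 to 1500 in WT) on chromosomes 1 to 19, X and Y. The gene table (NCBI RefSeq, GRCm38.p6) gives no strand, so gene ends are both boundaries, and start sites came from the RefSeq promoter table. Python 3.11.15, numpy 2.4.6, pandas 2.3.3, scipy 1.17.1 and matplotlib 3.10.9 were used. The position classes were tested on simulated regions, and bedtools 2.31.1 gave the same 1914 LSD1 and 2185 H3K4me2 regions. Members, gene lists and motifs were chosen with earlier results of these data known. Named genes, without predicted ones, were at gene ends the 10 with the highest score, then signal, for inside LSD1 and 5 each for edge, bridging, gap and distant LSD1, the 5 longest bound and 5 longest unbound H3K4me2 regions, the 5 H3K4me2 regions with most LSD1, up to 4 genes of each list, and Ccn2 and Kdm1a. Cyp7a1, Acadm, Gadd45b, Foxo3 as a list gene, and Abcc10 and Ablim1 with their printed promoters fall outside this rule and were chosen after their values were seen. One gene that this rule names is not reported here.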

Additional observations from a re-analysis of the deposited data

How the results depend on the processing

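Of 58 values recomputed under 19 settings, 38 stayed within their interval (for the gene count, within 1.5 times) and 20 moved. Each value is a single share, median or count and was judged alone, so these labels do not count changes of order. The order of edge and inside did reverse in 1 setting. It was 34.0% edge and 21.1% inside as reported, and 14.9% and 50.8% with H3K4me2 within 1 kb joined. The 64.9% of LSD1 on H3K4me2 became 51.8% when at least 50% of the LSD1 region had to be covered, 21.1% when all of it had to be, and 72.6% when 1 kb of distance was allowed, as these rules imply. With the higher-scoring 50% of H3K4me2 regions it was 53.7%, with an edge share of 26.6% and median widths of 1312 bp for bound and 1218 bp for unbound regions. With H3K4me2 within 1 kb joined, the shares were 50.8% inside, 14.9% at an edge and 0.610% in gaps, and the widths 3256 and 1456 bp. With the 50% of LSD1 of higher signal, the inside share was 19.1%, the unbound width 569 bp and the genes with both 633, fewer regions being counted. By LSD1 midpoints 42.7% lay within 200 bp of a boundary. Gaps of up to 1 kb held 0.746% and of up to 5 kb 2.54%. The unbound width was 586 bp with a q-value of 0.05 or better, and the bound width 1217 bp with at least 200 bp in common. The use of WT H3K4me2 (63.2%) and the limit to 1500 YAP LSD1 regions were chosen after seeing the data. No paired analysis was possible because both replicates share 1 list, and for the same reason no replicate could be left out. Depth is unknown, so a region that is not listed may be marked below the authors' threshold.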

Other observations

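A second LSD1 region within the same H3K4me2 region was uncommon. It occurred in 20 H3K4me2 regions, 1332 to 8227 bp wide, and in 12 of them both LSD1 regions lay wholly inside. Besides Dusp6, the genes with an end in these regions included Pml, which encodes the organiser of nuclear bodies, Chd9, a chromatin remodeller, Ing3, a subunit of a histone acetyltransferase complex, Zfp217, Tnrc18 and Ifitm3, an antiviral membrane protein. These genes were chosen after their values were seen.

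LSD1 was thin on the X chromosome relative to the mark. The X held 14 LSD1 regions beside 950 H3K4me2 regions in YAP livers, or 14.7 per 1000, and 5 beside 954 in WT livers, or 5.24 per 1000. Chromosomes 1 to 19 had between 42.8 and 68.5 per 1000 in YAP livers. The WT LSD1 list is shorter as a whole, with 1500 regions beside 54219 of H3K4me2, against 2949 beside 51676 in YAP livers. The X values of the genotypes are therefore not read as a change on the X. The share of LSD1 on H3K4me2 was 9 of 14 on the X (64.3%, 38.8% to 83.7%) and from 59.0% to 74.2% on chromosomes 1 to 19. No label states the sex of the animals, and the part of sex in these values was not tested.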
